A study of Homo sapiens with 9 samples.

Results

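The genes with a ZNF number encode proteins with zinc fingers, most of them transcription factors, and those described here are the ones that A549 cells expressed. A gene was included if its symbol was ZNF followed by a number and at most 1 letter, and if its mean raw count over all 9 libraries was at least 100. This gave 142 of the 454 ZNF rows, in tables of 19257 genes. The members were thus selected on their counts, and their levels are given as a description. A549 is a human lung adenocarcinoma cell line. Bulk RNA-seq was done on 3 libraries of each of 3 groups. The NC libraries carry the genotype label WT and came from cells that received the Lenti-CRISPR-V2 plasmid with no guide. The OGT_KO and TR11B_KO libraries came from cells that received the same plasmid built against OGT, the enzyme that attaches O-GlcNAc to nuclear and cytosolic proteins, or against TR11B, the UniProt name of osteoprotegerin (gene TNFRSF11B). All groups thus share the vector and the serum-containing medium. Guide sequences and clones are not given in the sources used here. Each library is titled a biological replicate of its group, but whether the replicates were separate cultures is not described, and part of the spread behind the p-values may be technical.

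A C2H2 zinc finger is a short fold held by a zinc ion that reads a few bases of DNA, and ZNF proteins string several of them together. Many carry a KRAB box, a segment that recruits TRIM28, which in turn brings in the histone H3 lysine 9 methyltransferase SETDB1 and heterochromatin proteins and silences the bound site. KRAB-ZNF genes expanded by tandem duplication, lie mostly in clusters on chromosome 19, and are best known for silencing transposable elements. ZNF proteins without a KRAB box are a mixed group of activators, chromatin factors and RNA-binding proteins.

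The libraries held 38327508 to 42245970 counts. TR11B_KO replicate 2 stood apart, with a TMM factor (edgeR's correction for library composition) of 0.784 against 0.951 to 1.159 in the others, and with 14128 genes detected against 14581 to 14954. OGT mRNA, in TMM-normalized CPM (counts of the gene among 1000000 counts of its library), averaged 27.1 ± 2.45 in the NC libraries (SD, n = 3), with 24.1 ± 3.74 for OGT_KO and 13.6 ± 2.98 for TR11B_KO, and it was not called different between OGT_KO and NC (edgeR adjusted p = 0.607). It was called lower in TR11B_KO than in NC (log2 -0.99, edgeR adjusted p = 0.00393) and higher in OGT_KO than in TR11B_KO (0.82, edgeR adjusted p = 0.00882), so the lower OGT mRNA was in the group labelled for the other target. TNFRSF11B was nearly absent, with 13, 15 and 3 counts in the NC libraries, 1, 0 and 0 with OGT targeted and 3, 1 and 0 with TR11B targeted, too few to test. Because the guides' target sites are not known here, neither mRNA level checks the knockout, and groups are named by their labels throughout. The epithelial keratins KRT8 and KRT18 were abundant (mean FPKM 4490 and 3500), EPCAM had at most 2 counts and CDH1 was listed at 0 in all libraries. KRT8 and KRT18 were themselves lower in OGT_KO than in NC (log2 -0.99 and -0.93, edgeR adjusted p = 0.00185 and 0.0109), and their part in the results was not tested. The endothelial gene PECAM1 was also listed at 0, and the macrophage gene CD68 was at 2.87 to 6.33 CPM.

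Fewer ZNF genes than other genes were expressed by this rule, and at lower levels. Of the ZNF rows, 31.3% reached the minimum count, against 42% of the 18803 other genes. KRAB genes made up a smaller share of the expressed than of the other ZNF genes. A profile built from the family's own proteins found the box in 310 of 454 ZNF rows (68.3%), in 58 of the 142 expressed genes (40.8%) and in 252 of the 312 below the minimum (80.8%). Among KRAB genes 18.7% were expressed by this rule, and among the 144 ZNF genes without the box 58.3% were. The expressed genes had a median of 2.1 FPKM (fragments scaled by gene length and library size, so that genes of different length can be compared), against 6.04 FPKM for the 7898 other genes with the same minimum. KRAB members had a median of 1.48 FPKM and members without the box 3.46 FPKM. The genes just inside the minimum were ZNF445 and ZNF343 at a mean count of 100.7 and ZNF326 at 103.3, and those just outside were ZNF492 at 99.0, ZNF251 at 98.6 and ZNF2 at 97.4.

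Above 10 FPKM stood 31 of the 142. ZNF593, a small protein related to a yeast factor of large ribosomal subunit assembly, had by far the highest level at 446 FPKM, followed by ZNF428 (84.0), ZNF787 (68.9), ZNF622 (66.3), which releases a factor from the maturing large ribosomal subunit, and ZNF581 (52.5). ZNF282, first described as a repressor that binds a retroviral long terminal repeat, was the highest KRAB member at 38.3 FPKM. At the other end stood ZNF445, a KRAB protein that guards genomic imprints, at 0.136 FPKM. The members' proteins had a median of 8 finger patterns (a cysteine pair, 12 residues and a histidine pair at set spacing), with 31 in ZNF142 and in ZNF646. No such pattern was found in 5 members, among them ZNF503 and ZNF703, which belong to a separate family of corepressors, and ZNF185, a LIM-domain protein of the actin cytoskeleton. Chromosome 19 held 49 members and 224 of all ZNF rows, chromosome 16 held 22 members and chromosome 7 held 11. Of the 142 members, 49 overlap another gene of the tables in RefSeq, and how the authors counted strands and shared reads is not given in the sources used here. Reads of related KRAB genes can also be hard to place, so values of close paralogs are uncertain.

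Promoter sequence was available for 119 of the 142 members (RefSeq, GRCh38.p14; the 250 bases before the start). The sequences of 4 members named below are printed as examples, and no change in level was related to them. They are ZNF398 and ZNF282, neighbours that both fell in TR11B_KO, and ZNF580 and ZNF598, among the members called against NC in each knockout. Capitals mark matches to 3 motifs on either strand, and no 2 of the marked matches overlap. The motif of SP1-like factors was searched as GGGCGG and is called the GC box. The motif of the factor NF-Y is CCAAT, and the core read by ETS-family factors such as GABPA was searched as CCGGAAG.
ZNF398 (chr7:149126158-149126407, + strand): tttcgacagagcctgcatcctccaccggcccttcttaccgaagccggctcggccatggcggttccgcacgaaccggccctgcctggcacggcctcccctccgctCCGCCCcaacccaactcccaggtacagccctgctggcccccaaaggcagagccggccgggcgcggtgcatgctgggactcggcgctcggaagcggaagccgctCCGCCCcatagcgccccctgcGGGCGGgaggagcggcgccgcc
ZNF282 (chr7:149195296-149195545, + strand): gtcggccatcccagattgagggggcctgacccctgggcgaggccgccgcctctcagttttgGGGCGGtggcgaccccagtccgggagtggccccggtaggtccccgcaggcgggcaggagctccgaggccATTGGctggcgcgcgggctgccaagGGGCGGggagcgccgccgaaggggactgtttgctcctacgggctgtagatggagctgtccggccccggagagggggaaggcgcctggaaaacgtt
ZNF580 (chr19:55640752-55641001, + strand): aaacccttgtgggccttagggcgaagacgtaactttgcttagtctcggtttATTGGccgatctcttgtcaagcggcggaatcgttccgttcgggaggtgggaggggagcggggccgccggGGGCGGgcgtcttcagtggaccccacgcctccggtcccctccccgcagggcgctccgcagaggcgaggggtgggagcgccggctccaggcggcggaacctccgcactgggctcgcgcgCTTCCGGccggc
ZNF598 (chr16:2009822-2010071, - strand): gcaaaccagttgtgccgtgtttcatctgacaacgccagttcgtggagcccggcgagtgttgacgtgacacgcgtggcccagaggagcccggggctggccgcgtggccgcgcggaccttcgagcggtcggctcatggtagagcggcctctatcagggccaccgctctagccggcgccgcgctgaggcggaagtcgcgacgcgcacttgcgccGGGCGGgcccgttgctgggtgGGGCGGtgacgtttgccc

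These stretches hold 23 to 34 CpG dinucleotides each, and no TATAAA. The median was 21 CpG over the promoters of all tested genes and also 21 over those of the 119 members. Over all members the GC box was present in 66.4% of promoters, against 69.2% of the 10227 promoters of tested genes, and the NF-Y motif in 29.4% against 35.1%. The ETS core was in 27.7% of member promoters (29.2% of those of KRAB members) against 16.7%. The CRE motif TGACGTCA, read by CREB and ATF proteins, was in 6.72% (8 promoters) against 2.96%. TATAAA was in 1.68% against 4.95%, and CACGTG in 5.88% against 8.98%. A match is a match of letters in this window and was not tied to binding.

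In OGT_KO against NC, 7 members were higher and 14 lower at an edgeR adjusted p under 0.05 (called, from here on), 14.8% of 142. Over all 12574 genes tested 18.3% were called, 8.26% higher and 10.1% lower. The median log2 fold change was -0.022 over the members and 0.033 over all genes. CPM did not overlap between the groups in 71 members (50%), against 49.8% of all tested genes. The members' share of all counts was 0.390% ± 0.0046 (SD, n = 3) in NC and 0.387% ± 0.00612 in OGT_KO. With library totals alone in place of TMM factors the calls were 14 higher and 10 lower, and the median of all genes moved to 0.147. The counts also moved with single libraries. Without TR11B_KO replicate 2, which is in neither group of this contrast but enters the shared fit, they were 22 higher and 30 lower, and without TR11B_KO replicate 1 they were 16 and 20. Without NC replicate 1 or OGT_KO replicate 1 they were 4 and 8, without NC replicate 2 they were 4 and 7, and without OGT_KO replicate 2 or 3 they were 5 and 7, or 6 and 9.

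Of 12 members that were called and changed at least 2-fold in OGT_KO, 11 had no KRAB box. Both limits were met by 9.78% of all tested genes. In TR11B_KO 12 members met them, 5 with a KRAB box and 7 without, and 13.9% of all tested genes did. KRAB members had a median mean count of 245 and the others 741, and the part of this in the split was not tested. ZNF503, a corepressor of developmental genes, was at 2.6, 2.24 and 1.46 CPM in NC and at 8.21, 9.18 and 7.07 in OGT_KO. Every OGT_KO library was above every NC library, a 3.88-fold rise (log2 1.95 ± 0.28 SE, edgeR adjusted p = 0.000427). ZNF24, a SCAN-domain repressor of the growth factor gene VEGFA, was at 2.48, 2.57 and 2.3 CPM in NC and at 5.21, 7.23 and 5.33 in OGT_KO, a 2.42-fold rise (edgeR adjusted p = 0.0027). RefSeq places the antisense gene ZNF503-AS2 (mean count 205) across ZNF503 (mean count 186), and without strand their reads cannot be told apart. In TR11B_KO ZNF503 and ZNF24 were at 2.43 to 4.02 and at 2.19 to 2.93 CPM and were not called against NC.

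ZNF296, a factor expressed in pluripotent cells, was at 43.0, 40.8 and 45.5 CPM in NC and at 16.9, 11.9 and 15.5 in OGT_KO. It fell 2.91-fold without overlap (log2 -1.54 ± 0.26, edgeR adjusted p = 0.0012). ZNF526 was at 50, 47.4 and 48.8 CPM in NC and at 20, 17.5 and 23.8 in OGT_KO, 2.39-fold lower (edgeR adjusted p = 0.005). ZNF469, the gene mutated in brittle cornea syndrome, and ZNF618, a partner of the hydroxymethylcytosine reader UHRF2, had log2 changes of -1.60 and -1.38 from low levels (edgeR adjusted p = 0.00977 and 0.00408). RefSeq places GEMIN7 over part of the ZNF296 span and noncoding genes over that of ZNF469, while no gene of the tables overlaps ZNF526 or ZNF618. Of the 21 calls, 11 were kept under all 18 alternatives, and those named in these paragraphs were among them.

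**Figure D1:**
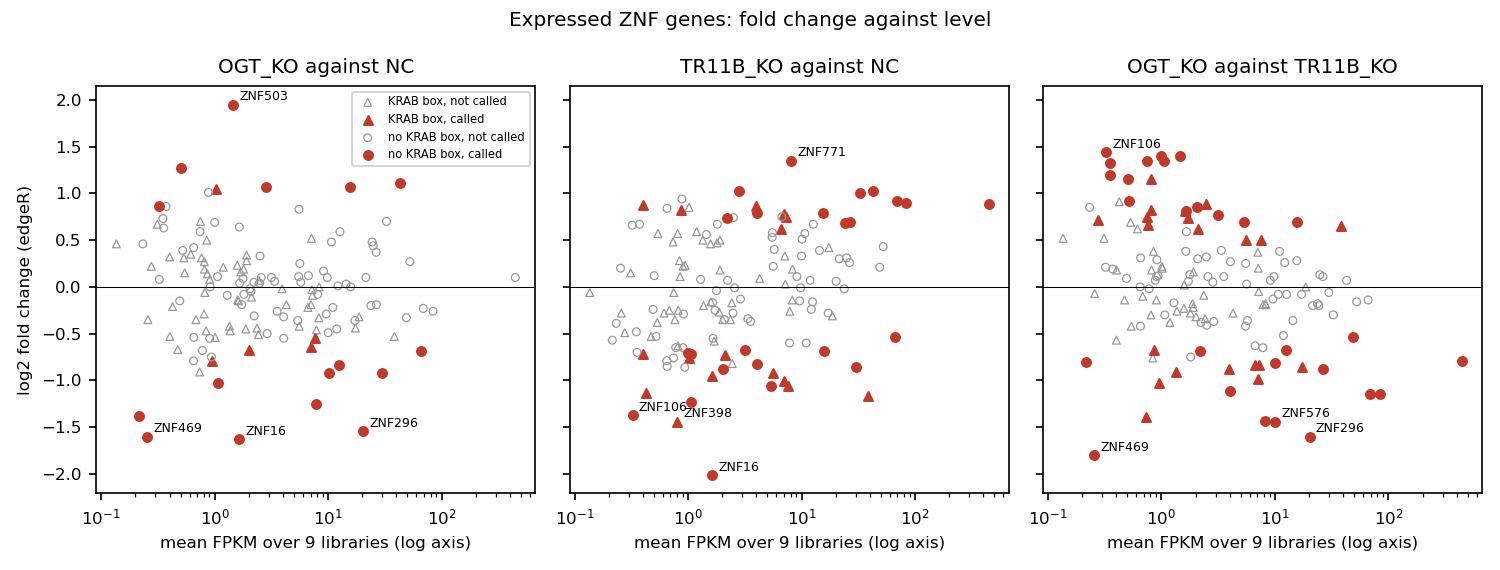
Log2 fold change (vertical axis) of the 142 expressed ZNF genes against mean FPKM (horizontal log axis), in each comparison. Triangles are KRAB members, circles members without the box and filled red symbols called members; OGT_KO against NC had 21 called members, of which ZNF503 rose most, and TR11B_KO against NC had 40.

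In TR11B_KO against NC, 18 members were higher and 22 lower, 28.2% of 142. Over all tested genes 27.6% were called, 13.2% higher and 14.3% lower. The members' median log2 fold change was -0.05, and that of all genes was -0.01. Groups did not overlap in 60 members (42.3%) against 40.9% of all genes. The split of the calls moved with the scaling, from 18 and 22 to 26 higher and 19 lower with RLE size factors and to 13 and 27 with library totals. With DESeq2, which differs in its test as well as its scaling, it was 28 and 23. It also moved with single libraries: without TR11B_KO replicate 1 there were 41 higher and 23 lower, without replicate 2 there were 23 and 32, and without NC replicate 1 or 2 there were 7 and 11, or 6 and 10. The members took 0.345%, 0.429% and 0.386% of the counts of the 3 TR11B_KO libraries.

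ZNF16, a many-fingered gene on chromosome 8, had the largest fall. It was at 11.1, 9.16 and 6.69 CPM in NC, at 3.09, 2.84 and 2.76 in OGT_KO, and at 2.17, 1.71 and 2.79 in TR11B_KO. All 6 knockout libraries were below all NC libraries, and the falls were 3.1-fold in OGT_KO and 4.03-fold in TR11B_KO (edgeR adjusted p = 0.000853 and 0.000263). The comparisons share the NC libraries. ZNF263, a KRAB and SCAN protein, was at 45.9, 51.1 and 39.7 CPM in NC and at 23.8, 18.6 and 23.3 in TR11B_KO, 2.08-fold lower (edgeR adjusted p = 0.00122). ZNF185, the LIM-domain actin protein, was at 36.5, 41.9 and 30.5 CPM in NC and at 19.8, 14.3 and 18.1 in TR11B_KO, also 2.08-fold lower (edgeR adjusted p = 0.00275).

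ZNF771 was at 10.2, 11.4 and 13.7 CPM in NC and at 21.0, 42.7 and 26.6 in TR11B_KO, a 2.56-fold rise (edgeR adjusted p = 0.00206) whose highest value was in replicate 2. In OGT_KO it was at 9.7 to 12.5 CPM. ZNF580 was at 40.5, 38.2 and 41.1 CPM in NC, at 90.3, 75.5 and 92.3 in OGT_KO and at 55.2, 120 and 70.5 in TR11B_KO. It rose 2.15-fold and 2.05-fold (edgeR adjusted p = 0.00612 and 0.00629). RefSeq places ZNF580 (chr19:55641002-55643470) inside the span of ZNF581, so reads from one may have been assigned to the other; ZNF581 had log2 changes of 0.27 and 0.43 and was not called in either knockout. ZNF394 was at 8.15, 8.43 and 8.12 CPM in NC and at 14.9, 15.9 and 14 in TR11B_KO (log2 0.86 ± 0.19, edgeR adjusted p = 0.00525), and the libraries lay close together within each group; the span of ZNF394 overlaps that of ZNF789. Of the 40 calls, 14 were kept under all 18 alternatives, and the TR11B_KO calls named in these paragraphs were among them.

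**Figure D2:**
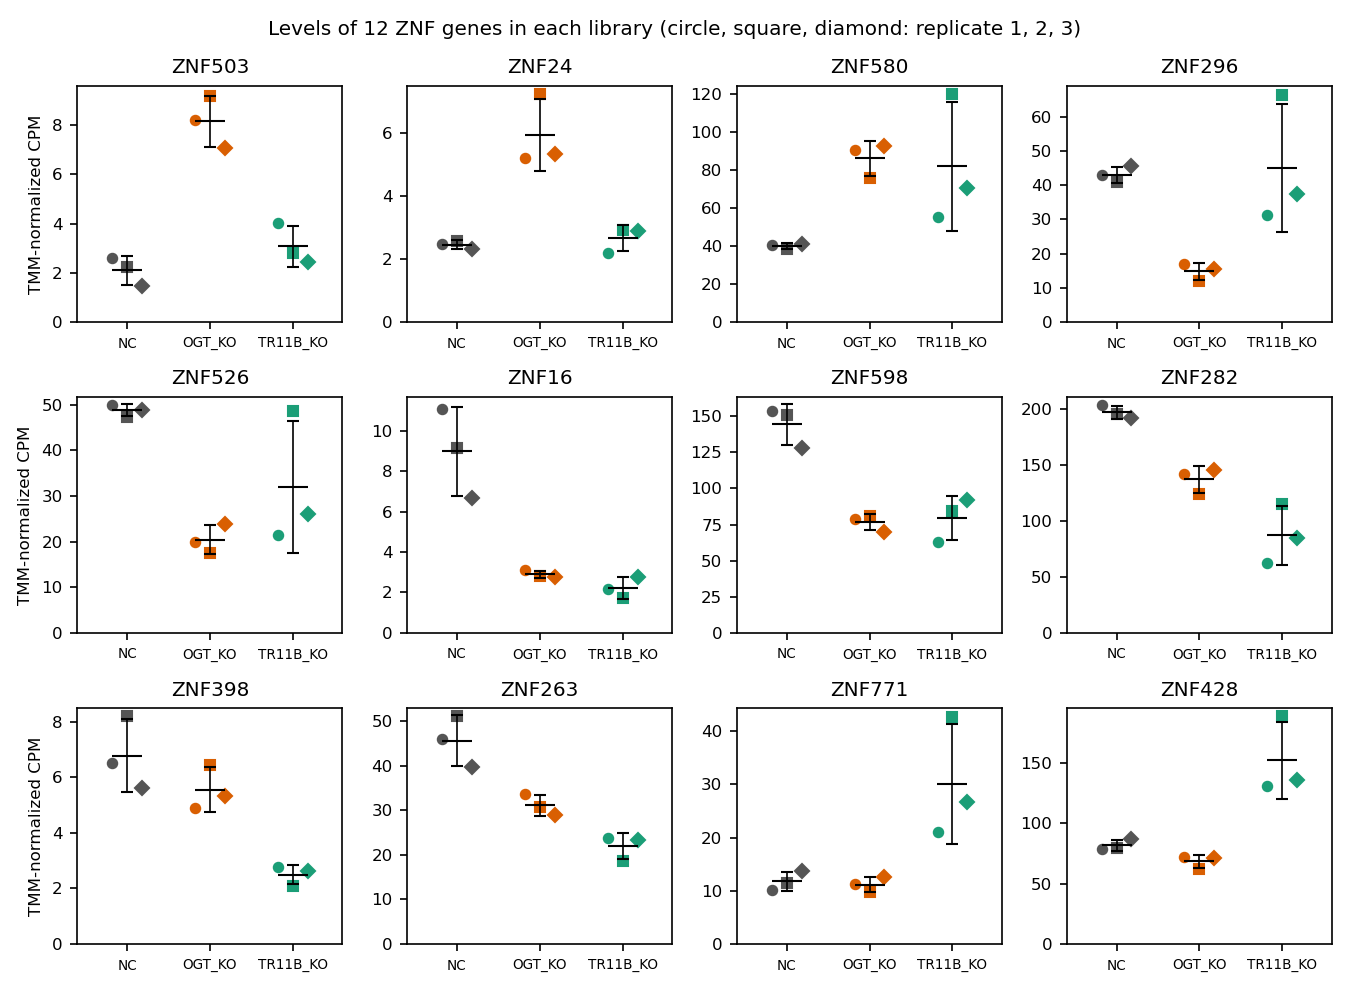
TMM-normalized CPM (vertical axis, from 0) of 12 members in each library, with circle, square and diamond for replicates 1, 2 and 3 and bars for the group mean ± SD. ZNF503 and ZNF24 were high in all OGT_KO libraries, ZNF16 and ZNF598 were low in all knockout libraries, and the TR11B_KO square of ZNF580, ZNF296 and ZNF771 stood above the other libraries of its group.

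Setting the knockouts against each other, with no NC library in the contrast, gave 26 members higher and 23 lower in OGT_KO, 34.5% of 142, with 33.2% of all tested genes called (16.7% higher and 16.5% lower). In 60 members (42.3%) the groups did not overlap, against 44.9% of all genes. ZNF106, ZNF503, ZNF281, ZNF131, ZNF318, ZNF398 and ZNF24 were higher in OGT_KO by 1.44 to 1.15 on the log2 scale, and ZNF469, ZNF296, ZNF576 and ZNF771 were lower, with log2 differences of -1.80 to -1.43. These 11 were among the 20 calls, of 49, that were kept under all 18 alternatives. ZNF576 was at 14.8, 14.2 and 17.4 CPM in OGT_KO, at 27.4, 26.7 and 34.0 in NC, and at 34.7, 52.0 and 38.9 in TR11B_KO, so that OGT_KO lay below all other libraries. With library totals alone the split became 35 higher and 15 lower, as the median of all genes moved from 0.056 to 0.314. Without OGT_KO replicate 2 it was 8 and 15, without OGT_KO replicate 1 it was 15 and 17, without OGT_KO replicate 3 it was 16 and 18, and without TR11B_KO replicate 3 it was 15 and 19.

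ZNF proteins that act on RNA, ribosomes or mitotic microtubules form a group of 12 members. In OGT_KO 2 of the 12 were called, both lower, and in TR11B_KO 4 fell and 1 rose; the medians were -0.136 and -0.599. This is 16.7% and 41.7% of the group, against 18.3% and 27.6% of all tested genes. ZNF598, the ubiquitin ligase that marks collided ribosomes, was at 154, 151 and 128 CPM in NC, at 78.7, 80.7 and 70.2 in OGT_KO, and at 62.7, 84.6 and 91.7 in TR11B_KO. The 6 knockout libraries lay below the 3 NC libraries, and the log2 changes were -0.92 ± 0.18 and -0.86 ± 0.18 (edgeR adjusted p = 0.00332 and 0.0035). ZNF207, a microtubule and BUB3-binding protein of the kinetochore, was at 70.6, 82.1 and 67.3 CPM in NC and at 49.8, 33.6 and 41.0 in TR11B_KO (log2 -0.82 ± 0.18, edgeR adjusted p = 0.00534). ZNF106, an RNA-binding protein of nerve and muscle, was at 3.68, 5.08 and 3.88 CPM in NC, at 3.55 to 5.06 in OGT_KO and at 2.21, 0.903 and 1.74 in TR11B_KO (log2 -1.37 ± 0.31 against NC, edgeR adjusted p = 0.00579); its span overlaps that of SNAP23.

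Of the same group, ZNF622 fell by 0.69 and 0.54 on the log2 scale in OGT_KO and TR11B_KO. Its OGT_KO call was lost without NC replicate 1 or 2 or without any OGT_KO library, at edgeR adjusted p = 0.0531 to 0.0732. In TR11B_KO it was lost without any NC library, OGT_KO replicate 1 or 3 or TR11B_KO replicate 3 (edgeR adjusted p = 0.0522 to 0.124). ZNF593, the ribosome assembly protein, was at 215, 219 and 235 CPM in NC, at 247, 202 and 267 in OGT_KO, and at 339, 512 and 388 in TR11B_KO. It rose by 0.89 ± 0.19 (edgeR adjusted p = 0.00358), with every TR11B_KO library above every other library. At 638 bases it is the shortest member, and with a correction for gene length its TR11B_KO change was 0.26 (edgeR adjusted p = 0.351).

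Among 20 activators and chromatin factors without a KRAB box, 4 rose and 1 fell in OGT_KO (median 0.102), and 1 rose and 4 fell in TR11B_KO (median -0.26), 25% of the group in each, against 18.3% and 27.6% of all tested genes. Between the knockouts 8 were higher in OGT_KO and 1 lower, 45% of the group against 33.2% of all tested genes. Those 8 were ZNF24, ZNF503, ZNF281, ZNF217, ZNF532, ZNF384, ZNF609 and ZNF512B, and the lower one was ZNF296. Without OGT_KO replicate 2 the count was 3 higher and 1 lower, as ZNF217, ZNF532, ZNF384, ZNF609 and ZNF512B lost their calls (edgeR adjusted p = 0.0531 to 0.072); without TR11B_KO replicate 2 it was 12 and 2, with the length correction 3 and 2, and with library totals 12 and 1. Without TR11B_KO replicate 2 the TR11B_KO count became 1 higher and 7 lower, without replicate 1 it became 3 and 1, and with the correction for length it became 2 and 0. ZNF281, a MYC-associated zinc finger protein, was at 4.35, 4.64 and 4.21 CPM in NC, at 7.3, 8.24 and 5.76 in OGT_KO, and at 2.36, 3.29 and 2.46 in TR11B_KO. The groups were ordered without overlap, and the difference between the knockouts was 1.4 ± 0.24 on the log2 scale (edgeR adjusted p = 0.000646). ZNF219, a partner of the cartilage factor SOX9, was at 36.8, 37.9 and 36.2 CPM in NC and at 78.0, 70.6 and 84.8 in OGT_KO, a 2.1-fold rise (edgeR adjusted p = 0.00447); its span overlaps those of ARHGEF40 and TMEM253.

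In OGT_KO 1 of the 58 KRAB members was higher and 4 were lower, with a median of -0.126, while 6 of 84 members without the box were higher and 10 lower, with a median of 0.034. That is 8.62% and 19% called, against 18.3% of all tested genes, and the difference between these groups was not tested. In TR11B_KO 6 KRAB members were higher and 10 lower (median -0.152), and 12 members without the box were higher and 12 lower (median -0.008). In TR11B_KO 27.6% of KRAB members and 28.6% of the others were thus called, against 27.6% of all tested genes. The KRAB count in TR11B_KO was 13 higher and 13 lower without TR11B_KO replicate 1, and 12 and 6 when corrected for length. ZNF689, one of the KRAB members that fell, was at 25.7, 27.5 and 24.0 CPM in NC and at 13.1, 12.9 and 14.7 in TR11B_KO (log2 -0.92 ± 0.18, edgeR adjusted p = 0.00237). ZNF875 was at 6.95, 8.0 and 6.72 CPM in NC, at 4.39, 3.76 and 4.36 in OGT_KO, and at 7.71, 8.67 and 9.12 in TR11B_KO. Its OGT_KO libraries were below all others, and the knockouts differed by a log2 of -1.03 ± 0.21 (edgeR adjusted p = 0.00223).

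Of a list made for repressors of repeats and imprints, 6 genes were expressed. The list also holds ZNF202, described by its lipid metabolism targets. It leaves out ZNF282, described above as binding a retroviral long terminal repeat and called lower in TR11B_KO (log2 -1.17). The shares below are those of this list and not of all such repressors. In OGT_KO 0 of the 6 were called by edgeR, 0 by DESeq2, and 0 had an unadjusted edgeR p under 0.05. In TR11B_KO 2 fell. The edgeR calls are thus 0% and 33.3% of the group, against 18.3% and 27.6% of all tested genes. ZNF561 fell by 1.13 on the log2 scale and ZNF202, a repressor of lipid metabolism genes, by 0.76. The ZNF561 call was lost without any NC library or without TR11B_KO replicate 3 (edgeR adjusted p = 0.0509 to 0.0822). The ZNF202 call was lost without any single library other than TR11B_KO replicate 1 (edgeR adjusted p = 0.0517 to 0.149). ZNF445 had changes of 0.46 and -0.06 and ZNF274, which helps to silence other ZNF genes, of -0.14 and -0.16; neither was called.

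The cofactors through which KRAB boxes act were measured beside them. TRIM28, the common partner, was at 2050 ± 56.9 CPM in NC, 2270 ± 204 in OGT_KO and 2230 ± 658 in TR11B_KO (SD, n = 3) and was not called (edgeR adjusted p = 0.653 and 0.682). Of 27 cofactors tested, 1 fell in OGT_KO and 5 fell in TR11B_KO. Calls in either direction made up 11.1% and 22.2% of the 27, against 18.3% and 27.6% of all tested genes. UHRF1, which reads hemimethylated DNA for DNMT1, was at 89.7, 73.7 and 73.8 CPM in NC and at 31.8, 35.2 and 31.7 in OGT_KO (log2 -1.27 ± 0.22, edgeR adjusted p = 0.00153). EHMT1, a lysine 9 methyltransferase, was at 55.7, 54.6 and 43.4 CPM in NC and at 29.5, 20.7 and 32.8 in TR11B_KO (log2 -0.89 ± 0.2, edgeR adjusted p = 0.00526). These 2 calls against NC were kept without any single library.

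SETDB1 was at 17.2, 17.9 and 12.8 CPM in NC and at 10.7, 7.61 and 10.2 in TR11B_KO, without overlap (log2 -0.75 ± 0.22, edgeR adjusted p = 0.0205). The SETDB1 call was lost without NC replicate 1 (edgeR adjusted p = 0.085) or 2 (0.0975). DNMT1 and CHD4 fell in TR11B_KO by 0.79 and 0.99 on the log2 scale, and MPHOSPH8, of the HUSH silencing complex, fell by 0.94. The DNMT1 and CHD4 calls were lost without NC replicate 1 or 2 (edgeR adjusted p = 0.063 to 0.139), and that of MPHOSPH8 without NC replicate 2 or 3 or TR11B_KO replicate 3 (edgeR adjusted p = 0.0746 to 0.0872). CBX5, which encodes the heterochromatin protein HP1 alpha, rose by 0.76 on the log2 scale in OGT_KO. It lost this call without any NC or OGT_KO library or without TR11B_KO replicate 3 (edgeR adjusted p = 0.0511 to 0.154).

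Members that lie within 1 Mb of each other were read together. On chromosome 7, 7 members, 6 of them with a KRAB box, lie between 149126408 and 150398630 (GRCh38.p14). In TR11B_KO 4 of them fell and 1 rose, with a median of -0.73, while of 9 other tested genes in the same interval 1 was called, lower (median -0.08). Over all tested genes 27.6% were called in TR11B_KO, 13.2% higher and 14.3% lower. ZNF398, a KRAB protein that binds the estrogen receptor, was at 6.52, 8.19 and 5.62 CPM in NC, at 4.89, 6.46 and 5.31 in OGT_KO, and at 2.76, 2.1 and 2.61 in TR11B_KO (log2 -1.44 ± 0.24 against NC, edgeR adjusted p = 0.00102). Its neighbour ZNF282 was at 204, 196 and 192 CPM in NC, at 142, 124 and 146 in OGT_KO, and at 62.3, 115 and 85.3 in TR11B_KO (log2 -1.17 ± 0.2, edgeR adjusted p = 0.00124). ZNF746, the Parkin substrate PARIS, was at 44.6, 44.7 and 38.7 CPM in NC and at 24.0, 15.1 and 24.4 in TR11B_KO (log2 -1.01 ± 0.21, edgeR adjusted p = 0.00319). In all 3 genes every TR11B_KO library was below every NC library.

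In the same run ZNF783 also fell in TR11B_KO (log2 -0.73), ZNF212 (-0.14) and ZNF777 (-0.31) were not called, and ZNF775, the member without a KRAB box, was the one that rose (log2 0.68; -0.02 with length and GC offsets, edgeR adjusted p = 0.912). The ZNF783 call was lost without NC replicate 1 or 2 or TR11B_KO replicate 3 (edgeR adjusted p = 0.0505 to 0.0779), and that of ZNF775 without any NC library (edgeR adjusted p = 0.0523 to 0.102). The run's count in TR11B_KO was 4 lower and 1 higher without TR11B_KO replicate 1, 5 and 1 without replicate 2, 3 and 1 without replicate 3, and 3 and 0 with the length correction. In OGT_KO 1 of the 7 was called, lower, and 6 of 7 changes were negative (median -0.32), while of the 9 other genes 4 were called, all higher (median 1.11). Over all tested genes 18.3% were called in OGT_KO.

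On chromosome 16, 10 members between 30378312 and 31084196 did not move together. In TR11B_KO ZNF771 and ZNF768 rose, ZNF689 fell, and the median was 0.25, against 0.29 over 23 other genes. On chromosome 19 the 4 members ZNF575, ZNF576, ZNF428 and ZNF45, between 43530835 and 43935282, had 3 lower calls in OGT_KO against TR11B_KO (median -1.27), and of 9 other genes there 4 were called, all lower (median -0.65). Over all tested genes 33.2% were called between the knockouts, 16.5% lower. The 25 members near the end of chromosome 19 (55476617 to 58489533), 13 of them with a KRAB box, had 2 higher and 1 lower in OGT_KO and 4 calls, all higher, in TR11B_KO. Of 40 other genes in that interval 3 were higher and 1 lower in OGT_KO, and 7 higher and 2 lower in TR11B_KO. Over all tested genes 18.3% were called in OGT_KO and 27.6% in TR11B_KO.

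**Figure D3:**
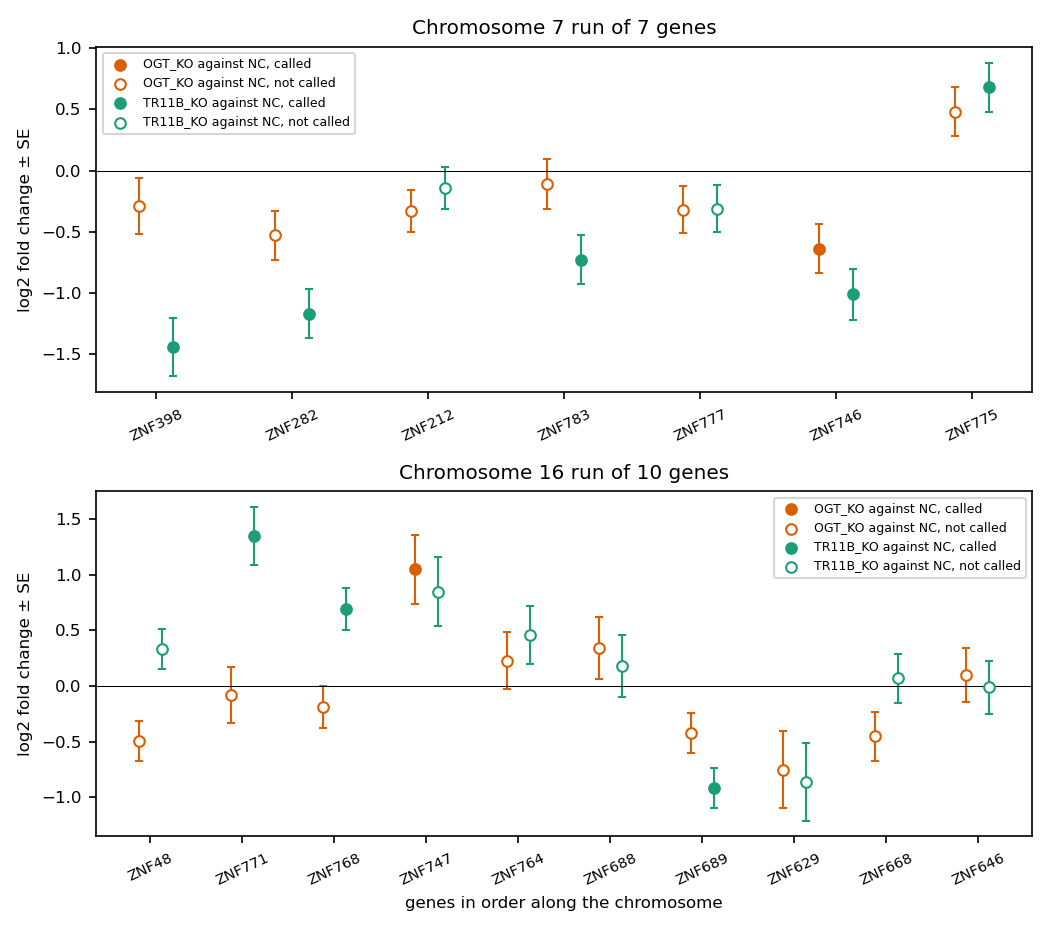
Log2 fold change ± SE (vertical axis) of members in their order along chromosome 7 (top) and chromosome 16 (bottom), with filled symbols for called genes. On chromosome 7 the TR11B_KO values of ZNF398, ZNF282, ZNF783 and ZNF746 were called lower and that of ZNF775 higher (-0.02 with length and GC offsets), while the chromosome 16 values went both ways.

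In TR11B_KO the members' change followed their length. Among the 47 shortest members (638 to 3481 bases) 10 were higher and 4 lower, with a median of 0.391, and among the 48 longest (5661 to 24823 bases) 2 were higher and 8 lower, with a median of -0.349. Spearman's rho between length and log2 fold change was -0.389 over the 142 members and -0.396 over the 7898 other genes with the same minimum, as a description over genes of the same libraries. For GC content it was 0.337 and 0.213, with 13 higher and 3 lower among the 48 richest in GC. Single libraries differed in this: over all tested genes, rho of GC with the library's deviation was -0.156, 0.372 and 0.320 in the TR11B_KO replicates, and -0.438 in OGT_KO replicate 2 against -0.184 and -0.150 in the other OGT_KO replicates. In OGT_KO rho with length was -0.024 and with GC -0.072 over the members. Without TR11B_KO replicate 1 the shortest members had 24 higher and 4 lower and the longest 9 and 9, and without replicate 2 they had 12 and 7, and 2 and 12. Ribosomal protein genes took 12.1% to 14.5% of counts in TR11B_KO, 9.98% to 10.5% in OGT_KO and 8.83% to 9.57% in NC, and the part of RNA quality or library composition in the length pattern was not tested. Corrected for length, the TR11B_KO count over all members was 25 higher and 12 lower, and for length and GC together 28 and 25.

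**Figure D4:**
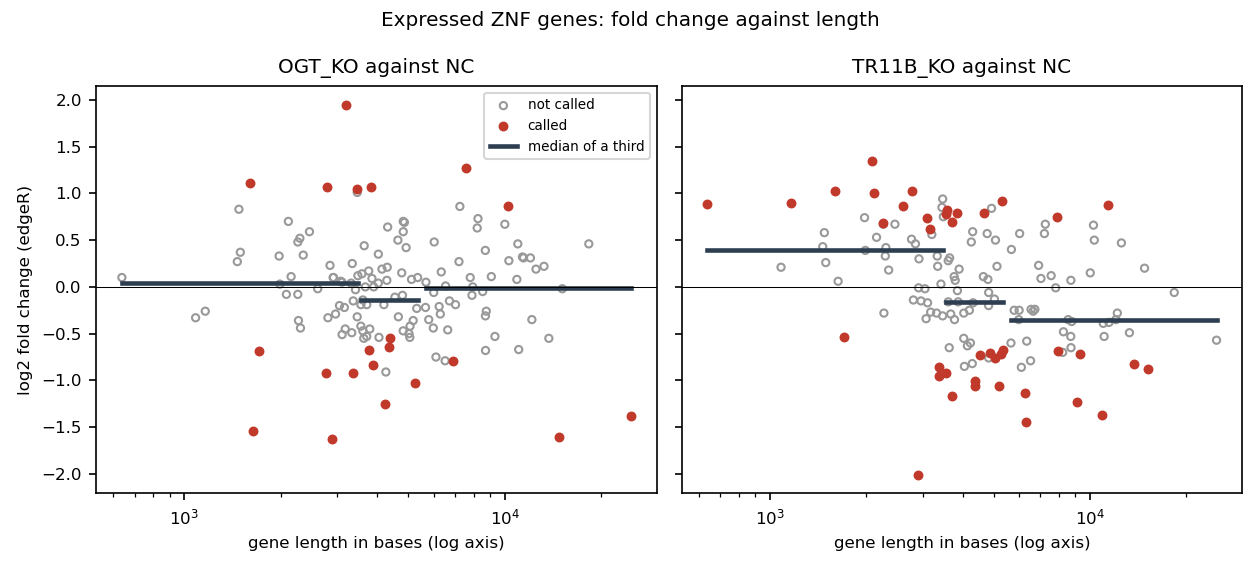
Log2 fold change (vertical axis) of the 142 members against gene length in bases (horizontal log axis), with called genes filled and bars for the median of the 47 shortest, 47 middle and 48 longest. In TR11B_KO (right) the bars fall from 0.391 to -0.349 with length, and in OGT_KO (left) they lie between 0.041 and -0.141.

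The members were set beside other genes of like length and mean count. Genes were placed in 25 bands by length and count, 5 classes of each, of which 24 held members. In bands weighted as the members are, 9.65% of other genes were higher and 11.6% lower in OGT_KO, where 4.93% and 9.86% of members were. In TR11B_KO the other genes had 12.3% higher and 21.3% lower, and the members 12.7% and 15.5%. Between the knockouts it was 23.2% and 16.1% for other genes and 18.3% and 16.2% for members. The median of the members' differences from their band's median was 0.052, 0.116 and -0.126 on the log2 scale, and 77, 81 and 57 of 142 members lay above their band's median. The related ZBTB, ZSCAN, ZKSCAN and ZFP genes with the same minimum, 30 in all, had 2 higher and 2 lower in OGT_KO and 7 higher and 6 lower in TR11B_KO. That is 13.3% and 43.3% called, against 18.3% and 27.6% of all tested genes, and the difference was not tested.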

How the data were processed

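Total RNA of 9 A549 libraries was sequenced, per the labels' protocols. The authors deposited 1 table of raw read counts per gene and 1 of FPKM for the same 19257 genes. The submitters' processing notes name fastp, HISAT, HTSeq, R 3.2.0, DESeq2 and the GRCh38 build, without saying which made which values; strand settings are not given in the sources used here. Deposited FPKM were used only to compare levels between genes and to derive gene lengths.

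The counts were tested with edgeR 4.0.16 (R 4.3.3): filterByExpr, TMM factors, and a quasi-likelihood fit over the 3 groups, with Benjamini-Hochberg adjustment over the 12574 genes kept, which included all 142 members. Sample titles gave the group and the replicate number. The threshold for a call was an adjusted p of 0.05. The 18 alternatives were DESeq2 1.42.0, RLE size factors, library totals, 2 low-count filters, a fit of only the groups compared, a replicate block, loess offsets for length alone and with GC content, and leaving out each library; member minimums of 50 and 200 were tried too. Precision is limited by 3 libraries per group. KRAB boxes were found with a profile (pyhmmer 0.12.3, E-value 1e-05) in GENCODE proteins. Positions and promoters are RefSeq, GRCh38.p14. The members and gene lists were chosen with earlier results of these data known. Genes named in the text are members with the largest called changes without overlap between groups, those called in each knockout, the highest by FPKM, members of role lists, neighbours in a run, and called KRAB cofactors; genes named for their place in a run or beside another gene were chosen after their values were seen. 1 of the cofactors tested is not reported here.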

Additional observations from a re-analysis of the deposited data

Results flagged for a closer look

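In 18 members the changes against NC had opposite signs in the knockouts, 1 of the 2 changes was called, and the difference between the knockouts was itself called by edgeR. The other change was not called in any of them and could be very small. ZNF512B, for example, changed by -0.69 in TR11B_KO, and the knockouts differed by 0.69. The share of all tested genes that met this rule was not counted, so the number is not read as a trait of the members. Between the knockouts 34.5% of members and 33.2% of all tested genes were called. The knockouts share the NC libraries in the first contrasts, and the values given here are the log2 differences of OGT_KO from TR11B_KO, which contain no NC library. OGT_KO was higher for ZNF106 (1.44), ZNF281 (1.40), ZNF609 (1.35), ZNF384 (0.77) and ZNF512B (0.69). OGT_KO was lower for ZNF469 (-1.80), ZNF296 (-1.60), ZNF576 (-1.44), ZNF771 (-1.43), ZNF428 (-1.15), ZNF787 (-1.15), ZNF696 (-1.11), ZNF875 (-1.03), ZNF71 (-0.98), ZNF394 (-0.88), ZNF768 (-0.88), ZNF707 (-0.84) and ZNF316 (-0.83). All but ZNF316, ZNF384, ZNF512B and ZNF609 kept this call without any single library. With the length offset the call was lost by ZNF609 (0.87, edgeR adjusted p = 0.066), ZNF384 (0.52, 0.0616) and ZNF512B (0.26, 0.416). With library totals the call was lost by ZNF316 (-0.53, edgeR adjusted p = 0.058). ZNF609 lost it without OGT_KO replicate 2 (1.13, edgeR adjusted p = 0.0709), as did ZNF384 (0.64, 0.072), and ZNF316 and ZNF512B lost it without OGT_KO replicate 1 (-0.82, 0.0607; 0.69, 0.0574) or replicate 2 (-0.77, 0.0837; 0.70, 0.0607). TR11B_KO replicate 2 was the highest library of its group for ZNF469 (8.7 CPM), ZNF296 (66.3), ZNF771 (42.7) and ZNF787 (849), and these 4 differences kept their calls without it. With length and GC offsets ZNF296 was called lower than NC in TR11B_KO as well (-0.77, edgeR adjusted p = 0.000552), so its signs were then not opposite.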

How the results depend on the processing

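Higher and lower counts of members and their median log2 change moved with several choices, and the cause was not tested. For OGT_KO against NC the higher count was 12 with a member minimum of 50, 3 with 200, 14 with library totals, 12 with no low-count filter, 24 with only the 2 groups fitted and 17 with length and GC offsets. The lower count was 36 and 22 under the last 2 settings. The median was 0.041, -0.126 and 0.094 with the minimums of 50 and 200 and library totals. For TR11B_KO against NC the higher count was 28 with DESeq2 and 28 with both offsets, and the lower count 12 with only the 2 groups and 12 with the length offset. The median was 0.033 with the minimum of 50, 0.006 with DESeq2, 0.011 with RLE, -0.191 with library totals, 0.007 with the CPM filter, 0.031 with the length offset and 0.013 with both. For OGT_KO against TR11B_KO the higher count was 15 with the minimum of 200, 14 with only the 2 groups and 9 with the length offset, and the lower count 15 with library totals. The median was -0.137 with the minimum of 200, -0.073 with DESeq2, -0.076 with RLE, 0.256 with library totals and -0.142 with the length offset. Leaving out single libraries gave, for OGT_KO against NC, 4 to 22 higher, 7 to 30 lower and medians of -0.111 to 0.006. It gave 6 to 41, 10 to 32 and -0.091 to 0.025 for TR11B_KO against NC, and 8 to 32, 15 to 34 and -0.106 to 0.006 between the knockouts.

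With both offsets, among the genes named in the report, and ZNF562, where called with or without the offsets, ZNF296 (-0.77) and ZNF775 (-0.02) changed sign in TR11B_KO against NC, and ZNF207 (-0.41), ZNF320 (-0.06), ZNF358 (0.43), ZNF562 (-0.01), ZNF593 (0.02), ZNF775 (0.45) and ZNF777 (0.30) did so between the knockouts. Of these, ZNF296 was called lower in TR11B_KO than in NC with both offsets (edgeR adjusted p = 0.000552). Between the knockouts ZNF207 (edgeR adjusted p = 0.0466), ZNF358 (0.0147), ZNF775 (0.00543) and ZNF777 (0.0421) were called with the changed sign. ZNF428 lost its TR11B_KO call with the length offset (0.48, edgeR adjusted p = 0.0718). With the replicate number as a block, 6 members were higher and 11 lower in OGT_KO, 14 and 16 in TR11B_KO, and 18 and 20 between the knockouts. Correlations of deviations from group means were -0.199 to 0.069 for same-numbered libraries and -0.1 to 0.216 for libraries of different number. Same-numbered libraries were thus no closer by this measure. With 3 libraries per group it cannot tell whether libraries of 1 number were prepared together. Of the members, 42 had a mean count under 200, where counting error is largest.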
